A study of Mus musculus with 6 samples.

Results

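The regions described here are the crosslinking peaks on the mouse mitochondrial chromosome (mm9) that start at 2700 or later, beyond the ribosomal RNA genes, on both strands. The anti-PanQk list held 370 such peaks of 22166 distinct intervals, and the anti-HA control list held 199 of 8286. No peak lay close before the starting position of the rule, while the first ones after it began soon past it. The last peak before it began at 1056 in the anti-PanQk list and at 1044 in the control list, and the first after it at 2721 and 2722. The large ribosomal RNA gene, mt-Rnr2, had 0 listed peaks. The peaks fell under 31 Ensembl gene IDs, 28 of them in the anti-PanQk list and 29 in the control list. All peaks of each ID lay inside a single mitochondrial gene of the RefSeq table (GRCm38.p6), and each ID met a different gene, which gave 13 messenger RNA (mRNA) genes and 18 transfer RNA (tRNA) genes. The names below come from this match by position. It held for 34 of 34 mitochondrial IDs, and a shift of 1 nt in either direction would have put a peak outside its gene.

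The data are iCLIP libraries from C2C12, an immortalised mouse myoblast line. In this assay ultraviolet light (400 mJ here) fixes proteins to RNA in living cells, an antibody recovers the protein, and the sequenced fragments mark where on the RNA it was attached. The anti-PanQk library was made from myoblasts grown in serum medium with an antibody named for the Quaking (Qk) proteins as a family, and the control library from crosslinked lysate of such myoblasts with an antibody against HA, a peptide tag. The other 4 of the 6 libraries, made with anti-PanQk in myotubes after 72 h or with anti-Qk6 or anti-Qk7 in myoblasts, were not analysed here. Each antibody compared has 1 library, so there is no replicate, no difference between the antibodies could be tested, and intervals cover counting error only.

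Both strands of the mitochondrial genome are transcribed as long precursors, and the tRNAs that punctuate them are cut out to release the mRNAs and ribosomal RNAs. The mRNAs encode core subunits of the respiratory chain and of ATP synthase. Most genes are read from one strand (plus in these files), and ND6 and a group of tRNAs from the other. Qk proteins are nuclear-encoded RNA-binding proteins that act in the nucleus and the cytosol on splicing, stability and translation. Crosslinks to mitochondrial RNA are a common constituent of CLIP libraries, so the control values matter here.

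Mitochondrial mRNA and tRNA genes took a larger share of the listed reads with anti-PanQk than in the control, while the order of their shares of listed peaks depended on which peaks were admitted. Read numbers were taken from the end of the name deposited for each peak. These regions held 13535 reads in the anti-PanQk list, 6.74% of all its listed reads (95% Clopper-Pearson interval 6.63 to 6.85), against 3947 reads or 2.63% (2.55 to 2.71) in the control list. The ribosomal RNA end of the same chromosome also held a larger share with anti-PanQk, 1.87% (1.82 to 1.93) against 1.24% (1.18 to 1.29). For the regions described here, the ratio of the shares was 2.56. It was 2.67 for the mRNA genes alone and 0.912 for the tRNA genes alone. The tRNA value pools plus-strand genes at 1.45 and minus-strand genes at 0.325, while 12 of the 13 mRNA genes are on the plus strand. By peaks, the share was 1.67% (1.5 to 1.85) with anti-PanQk and 2.40% (2.08 to 2.75) in the control. With only peaks of p at most 1e-06 it was 5.87% and 2.02%, and with the anti-PanQk list shortened to the length of the control list 3.96% and 2.40%, so both settings turned the order. The peaks covered 2672 nt with a mean of 36.6 reads per peak in the anti-PanQk list, and 1956 nt with a mean of 19.8 in the control list. The depth of the libraries is unknown, and a sum over called peaks also depends on how much was called. It is not known whether a read can count in several neighbouring peaks, so sums are given as listed. Such counting could fall unevenly, since 82.7% of anti-PanQk and 51.8% of control peaks here abutted a neighbour. Among nuclear peaks 13.2% and 9.68% did. The intervals take each read as counted once, and this was not tested.

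**Figure D1:**
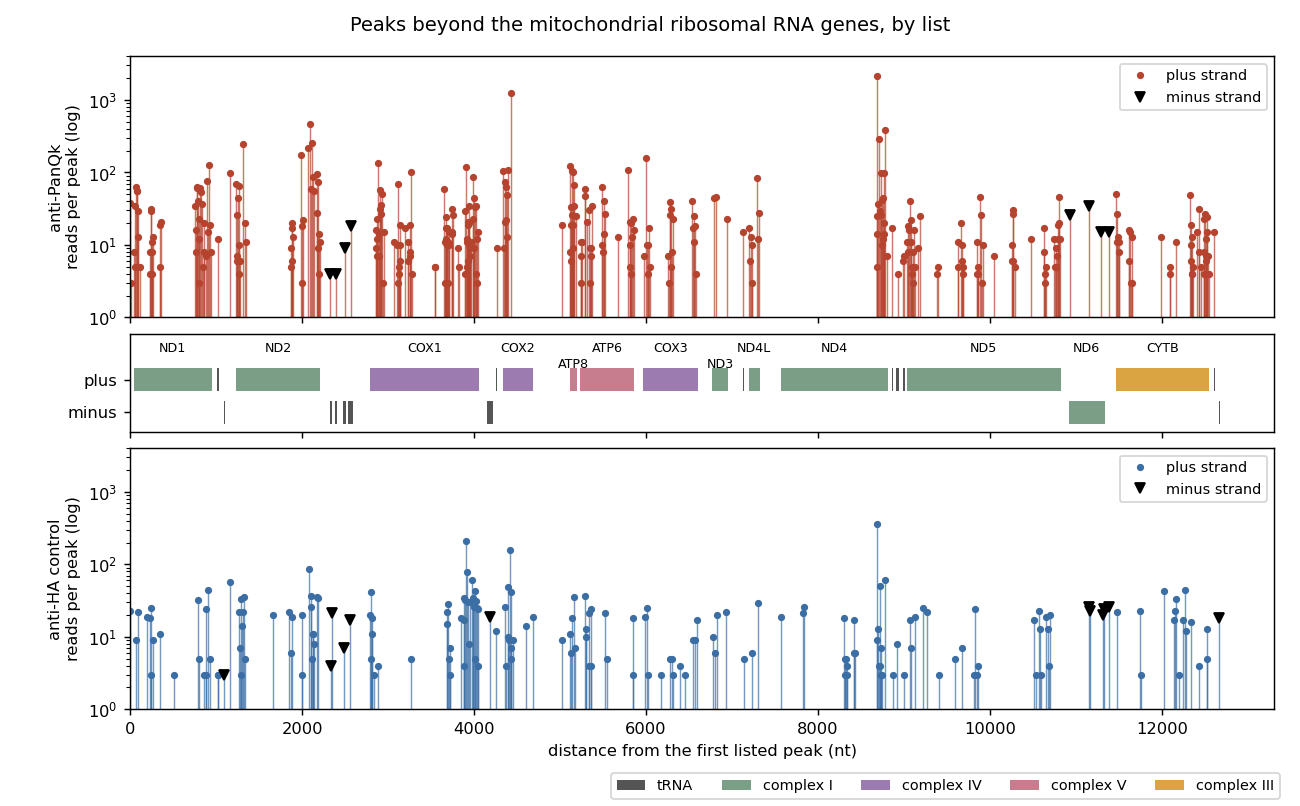
Reads per peak (log scale) against distance from the first listed peak in nt, with anti-PanQk above, the stretches from first to last peak of each gene in the middle and the anti-HA control below. Circles are plus-strand peaks and black triangles are minus-strand peaks. The 2 tallest anti-PanQk peaks, of 2167 reads in ND4 and 1268 in COX2, stand over tall control peaks of 358 and 159 reads.

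Between genes the difference was uneven. Genes are compared below by the share ratio, the share of all listed anti-PanQk reads in a gene divided by the same share in the control. Of the 26 IDs with peaks in both lists, 11 had a share ratio of at least 2 and 3 had one of at most 0.5. With mitochondrial reads alone as denominator these counts were 1 and 7, and without the control peaks of 10 to 26 reads they were 7 and 3 of 21 IDs. Shares over all IDs were computed in neither of these 2 settings, so those below stand beside the 11 and 3 only. Peaks of 10 to 26 reads made up 40.2% of control peaks here and 63.4% of all control peaks. With anti-PanQk it was 38.4% and 12.8%. Over all 3399 IDs with peaks in both lists, 16.1% were at least 2-fold higher with anti-PanQk and 48.0% at least 2-fold lower. The median share ratio was 1.54 for the 26 mitochondrial IDs and 0.540 for all 3399. Among IDs with at least 100 control reads, the median was 3.32 over 9 mitochondrial IDs and 0.539 over 168 nuclear IDs. Among IDs with 3 to 9 control reads it was 1.58 over 7 mitochondrial IDs and 1.74 over 648 nuclear IDs. With 10 to 26 control reads it was 0.561 over 5 mitochondrial IDs and 0.436 over 1549 nuclear IDs. With 27 to 99 it was 1.46 over 5 mitochondrial IDs and 0.343 over 1005 nuclear IDs. The mitochondrial median was thus above the nuclear one in each class from 10 control reads up, though below 1 at 10 to 26. It was close to the nuclear one among genes with 3 to 9. The difference between the mitochondrial and nuclear IDs was not tested.

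**Figure D2:**
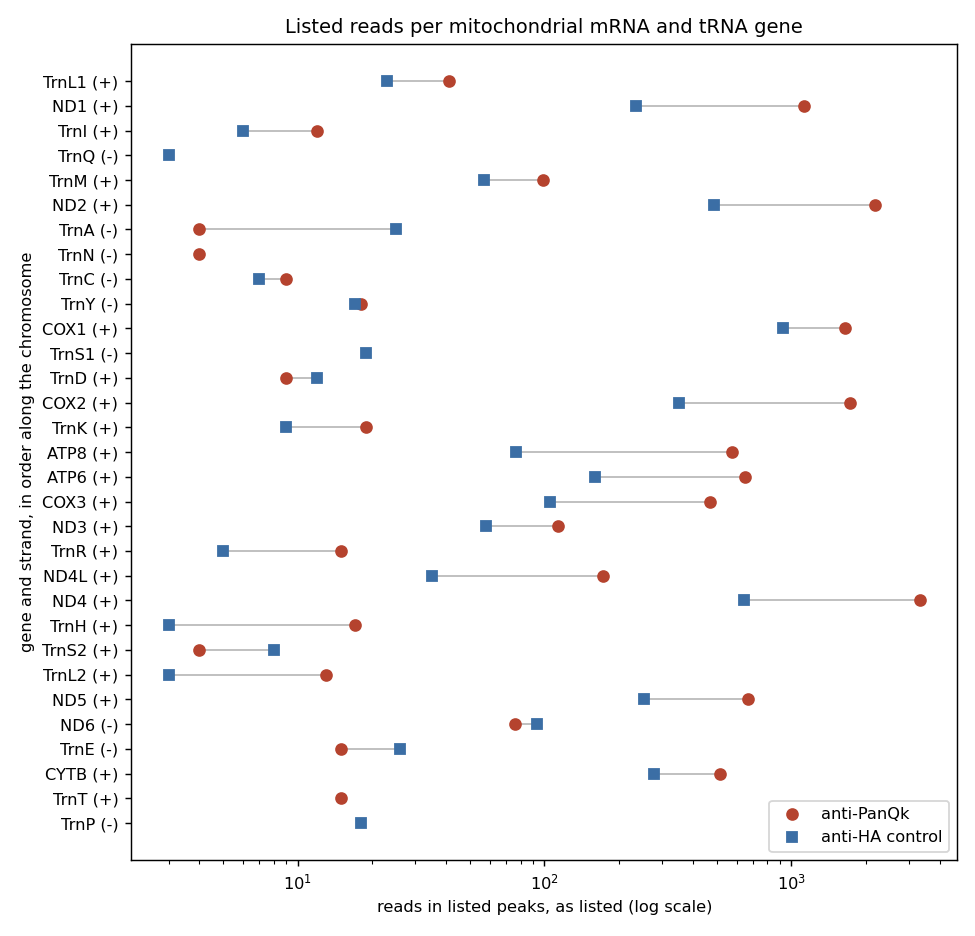
Reads in listed peaks per gene on a log scale, with anti-PanQk as circles and the anti-HA control as squares, genes in order along the chromosome and the strand in brackets. A missing symbol means that the list has no peak there. All 12 plus-strand mRNA genes have more reads in the anti-PanQk list, and ND6 (76 and 93 reads) has fewer.

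Complex I, the NADH dehydrogenase that starts the respiratory chain, has 7 mitochondrially encoded subunits, and all 7 genes had peaks in both lists. Together they held 7657 anti-PanQk and 1805 control reads, a share ratio of 3.17 (counting interval 3.01 to 3.34). ND4 (ENSMUSG00000064363), a proton-pumping subunit, had the most anti-PanQk reads of any mitochondrial mRNA, with 3319 in 18 peaks against 644 in 22 control peaks, a share ratio of 3.85 (3.54 to 4.20). ND2 (ENSMUSG00000064345), a related pump subunit, had 2185 and 486 reads (ratio 3.36, 3.04 to 3.72). ND1 (ENSMUSG00000064341), which lies where the membrane arm meets the peripheral arm, had 1123 and 235 (ratio 3.57, 3.10 to 4.13). ND4L, encoded next to ND4, had 173 and 35 (ratio 3.69, 2.56 to 5.48). These 4 genes were past 2-fold, and the other 3 were not.

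ND5, the third pump subunit and the longest mRNA gene here, had 668 anti-PanQk and 254 control reads, a share ratio of 1.97 (1.70 to 2.28). ND3 had 113 and 58 reads (1.46, 1.05 to 2.03). ND6 (ENSMUSG00000064368), the only mRNA gene on the minus strand, had fewer reads with anti-PanQk, 76 in 3 peaks against 93 in 4 control peaks, and its ratio of 0.611 (0.445 to 0.836) was the only one below 1 among the 13 mRNA genes.

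The 3 genes of complex IV, cytochrome c oxidase, split. COX2 (ENSMUSG00000064354), whose product takes up electrons from cytochrome c, had 1732 reads in 10 anti-PanQk peaks and 352 in 12 control peaks (ratio 3.68, 3.28 to 4.14). COX3, a core subunit without a redox centre, had 467 and 105 reads (3.32, 2.69 to 4.15). COX1 (ENSMUSG00000064351), which holds the site of oxygen reduction, had 1645 reads in 78 anti-PanQk peaks and 928 in 34 control peaks, and its ratio was 1.33 (1.22 to 1.44). COX1 had the most control reads of these genes, whereas ND4, ND2 and COX2 had more anti-PanQk reads than it. CYTB, the complex III subunit, was close to COX1 with 516 and 279 reads (1.38, 1.19 to 1.61).

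Both ATP synthase genes were past 2-fold. ATP8 (ENSMUSG00000064356), a small membrane subunit, had 577 reads in 13 anti-PanQk peaks against 77 in 5 control peaks, and its share ratio of 5.60 (4.41 to 7.2) was the highest of the 26 IDs. ATP6, which forms the proton path and whose reading frame overlaps that of ATP8, had 647 and 160 (3.02, 2.54 to 3.62). The RefSeq table also lists a nuclear pseudogene on chromosome 1, Gm10925, with ATP6 names among its synonyms. How reads that match both places were assigned is not given in the sources used here.

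Set per length, the order of the genes differed between the lists. The anti-PanQk list had 2828 listed reads per kb of ATP8, 2532 of COX2, 2409 of ND4 and 2105 of ND2, while ND3 had 325 and ND6 146. The control list had 601 reads per kb of COX1, 515 of COX2, 468 of ND2 and 467 of ND4, while COX3 had 134 and ND4L 118. Across the 13 mRNA genes, reads per kb in the 2 lists correlated with Pearson's r of 0.754 on the log2 scale and Spearman's rho of 0.709. This is a description over genes that share a library and, for the 12 on the plus strand, a precursor RNA.

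**Figure D3:**
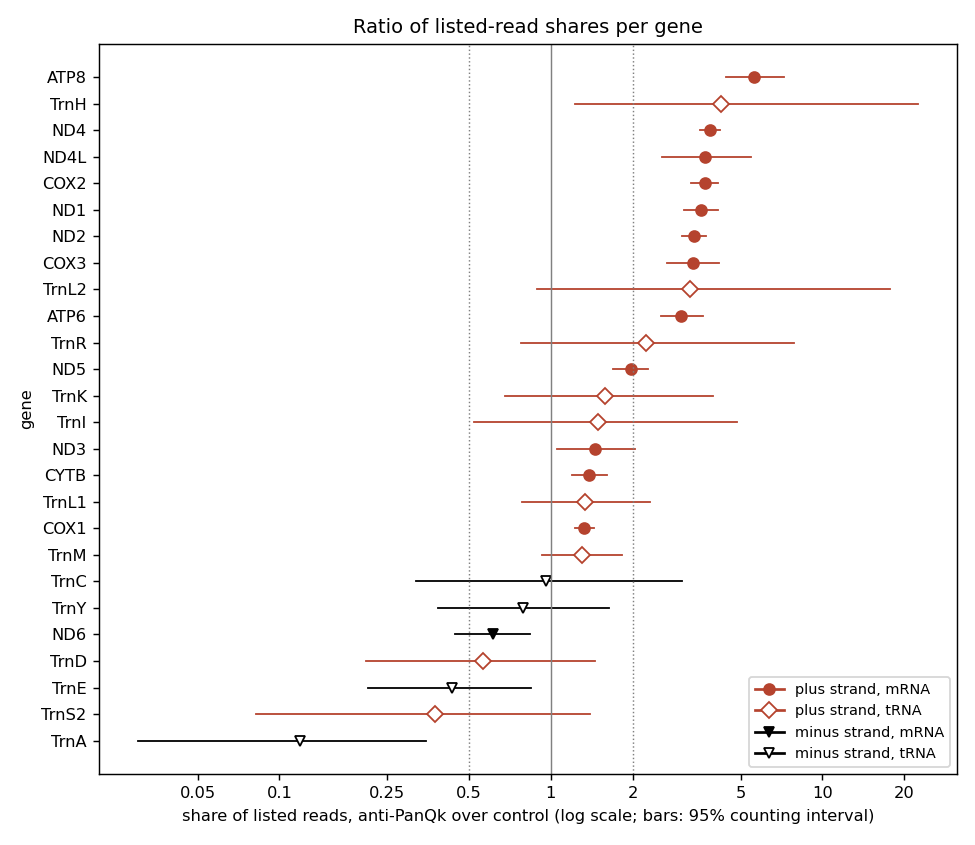
Share of listed reads with anti-PanQk over that in the control, per gene, on a log scale, with 95% counting intervals. Filled circles are plus-strand mRNA genes, diamonds plus-strand tRNA genes and black triangles minus-strand genes, and dotted lines mark 0.5 and 2. All 5 minus-strand genes lie below 1 and all 12 plus-strand mRNA genes above it.

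The strands differed in direction. On the plus strand the anti-PanQk list had 13409 reads in 362 peaks and the control 3739 in 187, a share ratio of 2.68 (2.59 to 2.78). On the minus strand the anti-PanQk list had 126 reads in 8 peaks and the control 208 in 12, a share ratio of 0.453 (0.360 to 0.568). The minus strand thus held fewer reads with anti-PanQk than in the control even before any scaling. All 5 minus-strand IDs present in both lists had a ratio below 1, from 0.120 for TrnA to 0.961 for TrnC, and the intervals of TrnC (0.319 to 3.04) and TrnY (0.385 to 1.63) span 1. The rest of the minus strand was seen in 1 list only. TrnS1 (19 reads), TrnP (18 reads) and TrnQ (3 reads) had a control peak alone, and TrnN (4 reads) an anti-PanQk peak alone. These are few reads, and the difference between the strands was not tested.

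The tRNA genes were near parity only with both strands pooled. Together they held 294 reads in 17 anti-PanQk peaks and 241 in 18 control peaks, a share ratio of 0.912 (0.766 to 1.09). The 10 on the plus strand held 244 and 126 reads, a ratio of 1.45 (1.16 to 1.81). The 8 on the minus strand held 50 and 115, a ratio of 0.325 (0.228 to 0.457). Of the 13 tRNA IDs present in both lists, 3 were past 2-fold higher and 3 past 2-fold lower. TrnM, the methionine tRNA that also starts translation in mitochondria, led both lists with a peak at exactly the same 2 bases (3878 to 3879), of 99 reads with anti-PanQk and 57 in the control (ratio 1.30, 0.928 to 1.83). TrnL1 had 41 and 23 reads. TrnK (19 and 9 reads), TrnI (12 and 6), TrnY (18 and 17), TrnC (9 and 7) and TrnD (9 and 12) lay between the 2-fold limits. The 3 past 2-fold higher were TrnH with 17 and 3 reads, TrnL2 with 13 and 3, and TrnR with 15 and 5. Only the interval of TrnH stayed above 1 (1.23 to 22.6). The 3 past 2-fold lower were TrnA with 4 and 25 reads (interval 0.0303 to 0.346), TrnE with 15 and 26 (0.212 to 0.845) and TrnS2 with 4 and 8 (0.0824 to 1.4). TrnT had 15 anti-PanQk reads and no control peak, and TrnG and TrnW had no peak in either list. The smallest listed peak has 3 reads in each list, so a missing peak does not show that there were no reads.

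Peaks in tRNA genes sat at like places. Counted from the 5′ end of the RefSeq gene, the summit of the strongest anti-PanQk peak lay at base 43.5 in the median of 15 tRNA genes (range 34.5 to 52.5), and that of the strongest control peak at base 39.75 in the median of 16 (range 20 to 50.5). In 9 of the 13 tRNAs present in both lists the summits lay within 5 nt of each other. The genes are only 59 to 75 nt long and most summits lay near the middle, which by itself keeps such distances short. As a part of gene length, the anti-PanQk summits lay from 50.0% (TrnM) to 73.9% (TrnL2), at or past the middle. The control summits lay from 29.0% (TrnA) to 73.9% (TrnY). Where these places fall in the folded tRNA was not examined.

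Much of the anti-PanQk signal came from a few places that also had control peaks, some of them among the strongest in the control. The strongest peak of all, at 11398 to 11406 in ND4, held 2167 reads with anti-PanQk, and the control peak inside it (11400 to 11405) held 358, the highest control value in these regions. The second, at 7122 to 7187 in COX2, held 1268 reads. It spans 7 control peaks with 241 reads, the strongest of which (7127 to 7146) had 159. The third, at 4798 to 4822 in ND2, held 472 reads against 87 in an overlapping control peak at 4793 to 4818. Further ND4 peaks at 11491 to 11509 and 11421 to 11445 held 383 and 286 reads, over control peaks whose strongest had 60 and 50. All 10 of the strongest anti-PanQk peaks overlapped a control peak. The next were 4 ND2 peaks, of 253 reads at 4827 to 4843, 251 at 4029 to 4051, 219 at 4791 to 4797 and 172 at 4710 to 4712, and a COX3 peak of 156 at 8713 to 8736. These 10 made up 41.6% of anti-PanQk reads in the regions, and the 10 strongest control peaks 29.5% of control reads. Among those control peaks, COX1 had 3, of 208, 79 and 60 reads, and the one of 60 reads (6691 to 6700) had no anti-PanQk peak over it.

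Some gene values moved when single peaks were left out. Without the strongest peak of each gene in each list, the share ratio of COX2 was 1.80, against 3.68 with it, and that of ND4 was 3.01, against 3.85. The share ratio of ND4L was 11.1 without them, against 3.69, with few control reads left, and that of ND5 was 2.03, against 1.97. The COX2 value rests on unlike removals, since its strongest anti-PanQk peak spans 7 control peaks with 241 reads. Of these, the control peak of 159 reads was removed and the others stayed. Without the 2 strongest anti-PanQk peaks and the 9 control peaks under them, 10100 anti-PanQk and 3339 control reads were left, and the share ratio of the regions together was 2.26.

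Within a gene, stretches behaved differently. When peaks of both lists within 50 nt were joined, 61 stretches resulted, 39 of them with peaks in both lists, with 97.4% of the reads from anti-PanQk and 93.3% of those from the control. Of the 39, 23 had a share ratio of at least 2 and 4 of at most 0.5. Such shares were not computed for stretches of the whole lists, so these counts are a description only. The stretches named next were picked after their values were seen. In COX1, the stretch at 6369 to 6778 held 883 anti-PanQk and 821 control reads, a ratio of 0.804 (0.730 to 0.885), and it contains the second strongest control peak, of 208 reads at 6625 to 6631, where the strongest overlapping anti-PanQk peak had 119. Upstream in the same gene, the stretch at 5917 to 6013 held 172 and 5 reads (ratio 25.7, 10.8 to 80.2), and the one at 5783 to 5864 held 138 anti-PanQk reads and no control peak. The downstream stretch thus held 821 of the 928 control reads of COX1.

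CYTB was mixed in the same way. Its stretches at 14706 to 14749 and 14815 to 14914 had fewer reads with anti-PanQk, 13 and 20, against 43 and 76 in the control. Its first stretch (14182 to 14226) had 121 anti-PanQk and 22 control reads, and its last (14968 to 15266) had 306 and 112. In ND4, no anti-PanQk peak lay before 11398, where the control list had 12 peaks with 133 reads, 20.7% of its ND4 reads. In ATP6, the stretch at 8509 to 8581 held 219 anti-PanQk and 21 control reads (ratio 7.80, 4.97 to 12.9).

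Of the 370 anti-PanQk peaks, 183 were control-free, meaning that no control peak on the same strand shared a base with them (49.5%, 44.3 to 54.7). In the whole anti-PanQk list 86.0% of peaks were control-free. Of the 44 peaks at the ribosomal RNA end of the chromosome 22.7% (11.5 to 37.8) were control-free, and of the 21752 nuclear peaks 86.7% (86.3 to 87.2). These intervals take peaks as independent, which neighbouring peaks of a gene are not, and the differences were not tested. In the control list, 70 of the 199 peaks (35.2%, 28.6 to 42.2) had no anti-PanQk peak over them, against 70.8% in the whole control list.

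Weak mitochondrial peaks were more often overlapped than weak nuclear ones, while the intervals met for strong ones. Among anti-PanQk peaks of 4 or 5 reads, 44.2% (30.5 to 58.7) of 52 mitochondrial and 7.14% (6.48 to 7.86) of 5488 nuclear peaks overlapped a control peak. Above 50 reads the shares were 73.5% (58.9 to 85.1) of 49 and 79.5% (74.9 to 83.6) of 351, whose intervals overlap. Mitochondrial peaks also abutted each other more often, and the part of this in the overlap was not tested.

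**Figure D4:**
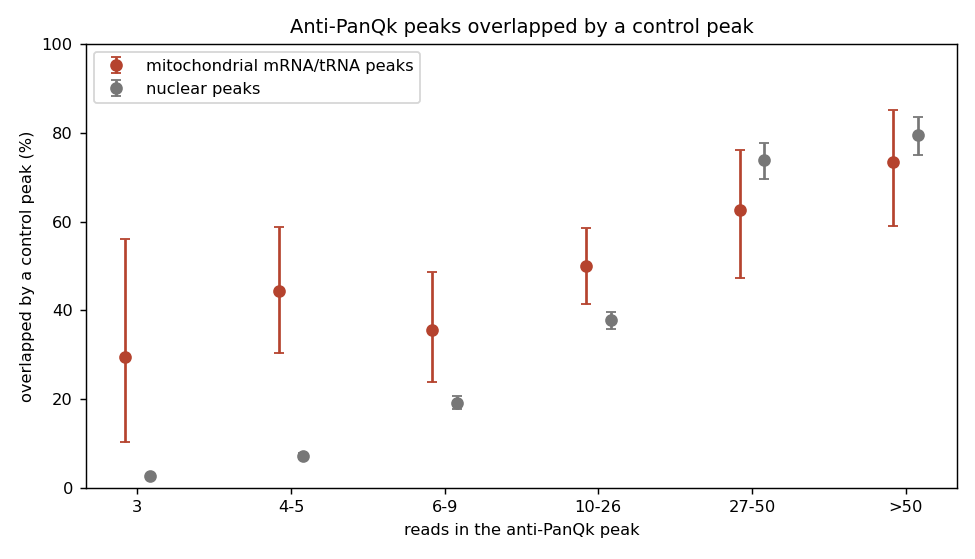
Percentage of anti-PanQk peaks overlapped by a control peak against the number of reads in the peak, for mitochondrial mRNA and tRNA regions and for nuclear genes, with exact 95% intervals. The mitochondrial share goes from 29.4% at 3 reads to 73.5% above 50 reads, and the nuclear share from 2.63% to 79.5%.

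The control-free peaks were weaker than the overlapped ones, at 11 reads in the median (quartiles 6 and 19.5) against 19 (9 and 36). They held 23.4% of the reads that anti-PanQk had here. Their number varied by gene. In ATP8, 1 of 13 peaks was control-free, in ND1 12 of 41 and in ND2 9 of 35, whereas it was 31 of 39 in CYTB, 40 of 55 in ND5, 19 of 29 in ATP6 and 47 of 78 in COX1. The strongest was a peak of 107 reads in ATP6 (8509 to 8524), 41 nt from the nearest control peak. It was followed by 104 reads in COX2 (7058 to 7069), 15 nt away, and 99 in ND4 (11480 to 11486), 13 nt away. The other 7 of the 10 strongest held 59 to 74 reads and lay in COX1, COX2, ND1, ND2 and ATP6.

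Most control-free peaks had a control peak near, but the 199 control peaks are dense here, which by itself keeps distances short. Of the 183, 157 had a control peak within 100 nt, and the median distance was 17 nt. This share was not computed for the whole list, so it is a description only. The 26 control-free peaks farther away comprised 11 in COX1, 9 in ND5, 4 in CYTB and 1 each in ATP6 and ND6. The strongest of them had 70 reads, at 5827 to 5841 in COX1, 148 nt from a control peak. In ND5, 6 abutting or nearby peaks between 12974 and 13012 held 84 reads with no control peak in the stretch. In ND6, a peak of 26 reads at 13638 to 13671 lay 192 nt from the nearest control peak, the only control-free peak among the 3 in that gene.

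Summit distances describe how the lists lay on each other. Overlap and the narrow peaks limit these distances by themselves, so they are given with no comparison. The deposited summit interval of each peak was reduced to its centre, and the nearest control summit was taken. The 187 overlapped peaks had a median distance of 2.5 nt, with 20 at the identical position and 140 within 5 nt, and 78 lay upstream and 89 downstream of the control summit. Of the control-free peaks, 121 lay upstream and 62 downstream of the nearest control summit, at a median distance of 22 nt. The strongest ND4 peak lay 0.5 nt from its control summit.

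**Figure D5:**
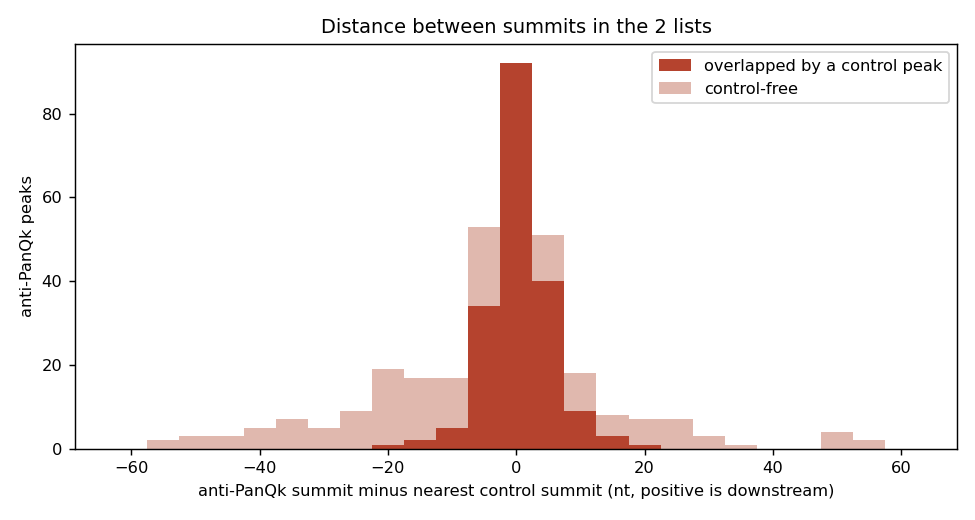
Number of anti-PanQk peaks by the distance in nt from the nearest control summit to the anti-PanQk summit, positive downstream, with overlapped peaks dark and control-free peaks light. The plot holds 333 peaks, and 37 lie beyond its range. Overlapped peaks crowd around 0, and 121 of the 183 control-free peaks lie upstream.

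The mitochondrial peaks were narrow pieces of larger covered stretches. Their median width was 5 nt (quartiles 3 and 9) in the anti-PanQk list and 6 nt (4 and 12.5) in the control, against 32 and 23 nt for nuclear peaks. In the anti-PanQk list 306 of the 370 (82.7%) abutted a neighbour without a gap, against 13.2% of nuclear peaks, and in the control 103 of 199 (51.8%) did, against 9.68%. The ribosomal RNA end shared this form, with 93.2% of anti-PanQk and 63.9% of control peaks abutting and median widths of 5.5 and 6 nt. Joined within 50 nt, the 370 anti-PanQk peaks made 55 stretches and the 199 control peaks 66. The counts of peaks therefore do not count separate sites. The median number of reads per peak was 13 in both lists here, against 4 in nuclear anti-PanQk and 15 in nuclear control peaks.

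Coverage left parts of the mRNAs bare in both lists. Within ND4 neither list had a plus-strand peak at 10565 to 11025, a gap of 461 nt. In ND2 the bare stretch was 303 nt (4075 to 4377), and in COX1 250 nt (6014 to 6263). From 7410 in COX2 to the peak in TrnK at 7739, 329 nt were bare, which includes the first part of TrnK. The 2672 nt under anti-PanQk peaks and the 1956 nt under control peaks shared 1185 nt, which is 44.3% of those under anti-PanQk peaks and 60.6% of those under control peaks.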

How the data were processed

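Peaks were called with CLIPper on 1 library per list, on mm9, per the file headers, and the submitters' processing notes name Bowtie2 and TopHat, with versions not given in the sources used here. Every track line names the library of its list. The p-value of each peak is as deposited by the authors. Positions are 1-based. Each interval was counted once, which removed 322 anti-PanQk and 210 control repeats, none of them in the mitochondrial regions described. The share ratios over all 3399 IDs and over nuclear IDs are an exception. Their reads per ID kept the repeats, while the list totals counted each interval once. Overlap meant 1 shared nt on the same strand, in Python 3.11.15 with pandas 2.3.3, numpy 2.4.6 and scipy 1.17.1, and the code was tested on simulated peaks. The counting interval of a share ratio comes from the exact binomial interval of the anti-PanQk reads among the reads of both lists. The planned Fisher's exact tests of control-free shares are not reported, since abutting peaks are not independent. The markers of the cell line were not checked, since the IDs outside the mitochondrial chromosome carry no symbols. Per-length values use RefSeq gene lengths. Named were the IDs with the most reads, the largest ratios in either direction or peaks in 1 list, and the strongest peaks. Members and lists were chosen with earlier results of these data known. Alternatives covered the p-value limit, overlap, distance, strand, repeats, list length, control peaks of 10 to 26 reads, the denominator, joining of peaks and the starting position. Sequences and motifs were not analysed here.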

Additional observations from a re-analysis of the deposited data

How the results depend on the processing

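No paired analysis was possible because each antibody compared has a single library, and no library could be left out. Settings on the strongest peaks, and all those for the ratio of 2.56, were chosen after seeing the data. No alternative control-free share or count of IDs past 2-fold below was computed over the whole list. The 86.0%, 16.1% and 48.0% given above for all peaks or IDs are therefore not at these settings. With p at most 1e-06, the control-free share was 61.4% against 49.5%, the share of peaks 5.87% with anti-PanQk and 2.02% in the control, against 1.67% and 2.40%, so the order turned. The share of reads with anti-PanQk was 9.94%, the ratio 3.86, the IDs past 2-fold lower 0 and the median reads 20 and 22. Every entry as listed gave 6.63% and 2.53% of reads. Equal list lengths gave anti-PanQk 3.96% of peaks and 8.66% of reads, with 0 IDs past 2-fold lower, and also turned the order of the peak shares. A control peak within 100 nt left 26 control-free peaks (7.03%), a share not computed for the whole list. Without control peaks of 10 to 26 reads, 62.2% were control-free, the control held 3.92% of peaks and 3.89% of reads with a median of 5 reads, 7 IDs were past 2-fold higher and the ratio was 1.73. With mitochondrial reads alone as denominator the ratio was 1.15, 1 ID was past 2-fold higher and 7 lower. Without each ID's strongest peak, 8 of 13 IDs were past 2-fold higher and 1 lower. Joining peaks gave medians of 90 reads and 43 nt with anti-PanQk and 25.5 reads and 27.5 nt in the control, since neighbours were summed. In all, 28 alternative values moved past the limits set, as given here, and 33 stayed within them. Those limits are wide for counts and ratios (1.5 times the main value), so a ratio of 1.73 is among the 33. The depth of neither library is known.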
